A study of Mus musculus with 4 samples.

Results

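Deubiquitinating enzymes are the proteases that take ubiquitin off proteins, and the transcripts of these enzymes were compared between WT and DDI2-KO mouse liver. The members were the protein-coding genes whose symbol is Usp followed by a digit (Usp18 and Usp9y left out) or starts with Otud or Uchl, together with Bap1, Cyld, Otub1, Otub2, Atxn3, Josd1, Josd2, Stambp and Brcc3. This rule took 75 of the 48709 genes in the count files. By family they were 54 ubiquitin-specific proteases (USP, with Cyld), 5 ubiquitin C-terminal hydrolases (UCH, with Bap1), 10 ovarian tumour proteases (OTU), 3 Josephin-domain proteases (MJD) and 2 metalloproteases (JAMM). The remaining gene, Usp6nl, was taken by its symbol and encodes a Rab GTPase-activating protein, so it is counted among the members and in no family.

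Liver RNA of untreated adult C57BL/6 mice was sequenced as 4 poly(A) libraries, 2 WT and 2 DDI2-KO, and reads were counted on whole genes. DDI2 is an aspartic protease that cuts the transcription factor NRF1 into its active form. The animals of both groups carried floxed Ddi2 alleles on both chromosomes (DDI2 flox/flox), and the DDI2-KO mice carried in addition a Cre transgene under the albumin promoter (Alb Cre+), whereas the WT mice were littermates without Cre (Alb Cre-). Cre under this promoter acts in hepatocytes, and which other cells of the liver keep the gene was not tested. The sex and exact age of the 4 mice were not given in the labels.

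Ubiquitin is attached to proteins in chains, and the linkage of a chain decides whether a protein goes to the proteasome, to the lysosome or into a signalling complex. The USP, UCH, OTU and MJD enzymes cut these links with a cysteine, and the JAMM enzymes with a zinc ion. In liver they act on endosomes, chromatin, mitochondria, inflammatory signalling and the proteasome itself, where ubiquitin is removed from substrates before they are degraded.

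The libraries held 22501208 to 34109018 reads on genes. A count of 3, taken as the smallest detectable level, was worth 0.0880 to 0.133 CPM (counts scaled to library size, with TMM factors), a limit that covers counting error only. For every read on a gene there were few outside annotated genes, 4.70 to 5.11% in WT and 2.53 to 3.65% in DDI2-KO. Alignments that were not unique were listed apart from the reads on genes. They numbered 22447151 and 16344248 in WT and 12589212 and 10636123 in DDI2-KO. Ddi2 itself, counted over the whole gene, had 141 and 123 CPM in WT, and the libraries labelled DDI2-KO had no less, at 157 and 164 CPM. A count over the whole gene cannot show the loss of a single exon, so this does not check these labels. The 8 hepatocyte markers, among them Alb, summed to 170032 and 191839 CPM in WT and 161912 and 164824 CPM in DDI2-KO, and none of the 8 passed the test.

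The catalytic centre is where the families can be told apart in the sequence itself, and the Josephin members are shown first because the only member that passed the test belongs to them. The coding stretches below were read from GRCm38 around the codon of the catalytic cysteine, which is in capitals. The Josd2 stretch lies at chr7:44468881-44468910 on the + strand in exon 2 of the 5 exons of its transcript, the Josd1 stretch at chr15:79686795-79686824 on the - strand in exon 1 of 4, and the Atxn3 stretch at chr12:101948407-101948436 on the - strand in exon 2 of 11.
Josd2: cggctagagctgTGTgctgtccatgctctc
Josd1: cgcagggagctcTGTgctcttcatgctctc
Atxn3: gaaggctcacttTGTgctcagcattgcctg

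The USP members share the cysteine box, in which codons for glycine, asparagine and threonine stand before the catalytic cysteine. These 4 codons, in capitals below, were found in a row in 33 of the 54 USP genes and in 28 of the 43 that could be tested. The 6 stretches are from genes named later for high or low fold changes in the USP family (Usp22 in the histone and chromatin group). They lie at chr9:108366837-108366866 on the + strand (Usp4), chr11:61162953-61162982 on the - strand (Usp22), chr8:80993228-80993257 on the - strand (Usp38), chr4:98928313-98928342 on the + strand (Usp1), chr7:97314766-97314795 on the - strand (Usp35) and chr7:121706849-121706878 on the - strand (Usp31). The 21 USP genes without this run include active enzymes such as Usp5 and Usp7, so its absence does not mark an inactive enzyme.
Usp4: ggaaacctgGGGAACACTTGCttcatgaac
Usp22: atcaacctgGGGAACACGTGTttcatgaac
Usp38: attaacctgGGAAACACGTGTtacatgaac
Usp1: aataaccttGGCAACACTTGTtatctgaat
Usp35: attaacttgGGCAACACATGCtacgtgaac
Usp31: cgcaaccacGGCAACACGTGCttcatgaac

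Of the 75 members, 60 passed the filter on low counts and were tested: 43 USP, 3 UCH, 8 OTU, 3 MJD, 2 JAMM and Usp6nl. No read was counted in any library for 9 members, namely the 5 Usp17l genes, Usp29, Usp44, Otud6a and Otud7a. A further 6 had too few reads for the test: Uchl1, Uchl4, Usp13, Usp26, Usp43 and Usp51 had at most 6 reads in a library. Uchl1, an enzyme of neurons, had a read count of 1 and 2 in WT and of 0 in both DDI2-KO libraries, and Usp13, a relative of Usp5, had 4 and 0 in WT and 0 and 2 in DDI2-KO.

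To compare levels between genes, CPM was divided by the length of the longest annotated transcript in kilobases (CPM per kb). On this scale the 60 tested members ran from 0.190 to 26.2 CPM per kb over the 4 libraries, with a median of 4.39 against 3.40 for all genes tested. The highest mean levels were those of Usp4, an enzyme that acts on the TGF-beta receptor (26.2 CPM per kb), Otub1, which blocks ubiquitin-conjugating enzymes (19.0 CPM per kb), and Usp5, which takes apart free ubiquitin chains (15.3 CPM per kb). This order depends on the length used. Divided by the union of all exons, which for Usp4 is 8628 bases against 3662 for its longest transcript, the highest levels were those of Usp8 (13.8 CPM per kb), Otub1 (12.9) and Josd1 (11.1), and Usp4 also came to 11.1. The lowest mean levels were those of Usp35 (0.216 CPM per kb), Usp27x (0.197) and Usp50 (0.190), each from fewer than 40 reads in every library.

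**Figure D1:**
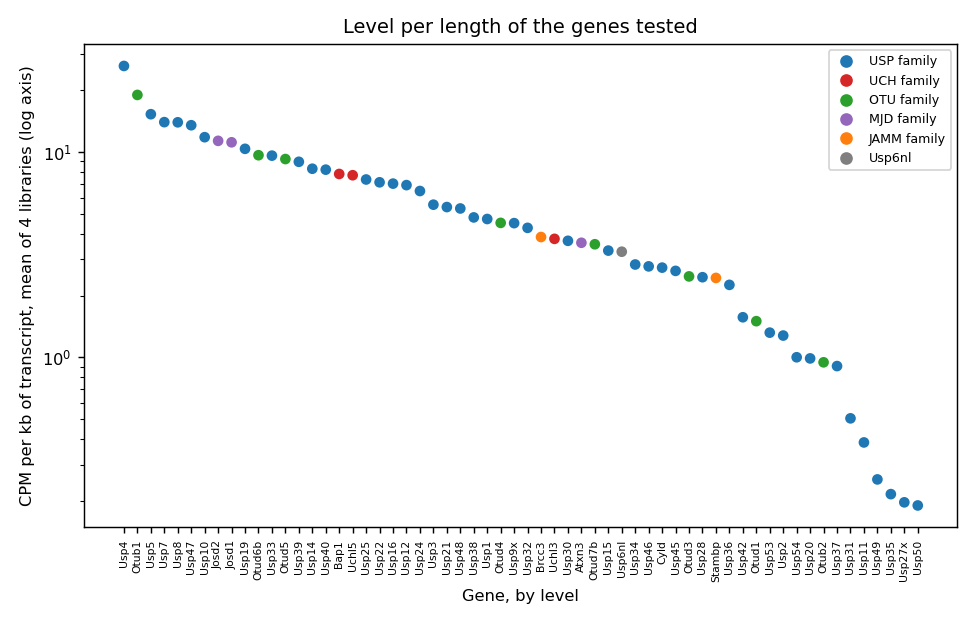
Level of the 60 tested members, as the mean CPM per kb of the longest annotated transcript over the 4 libraries (log axis), ordered from high to low and coloured by family. Usp4 is highest at 26.2 CPM per kb and Usp50 lowest at 0.190, and Josd2 and Josd1 stand next to each other at 11.3 and 11.1.

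Between WT and DDI2-KO, 1 of the 60 tested members passed an adjusted p of 0.05 in the quasi-likelihood test of edgeR, adjusted by Benjamini-Hochberg across the 13699 genes tested. This was Josd2, which was lower in DDI2-KO. Over all genes, 346 passed, which is 2.53%, and the 164 that were lower in DDI2-KO make up 1.20%. At an unadjusted p under 0.05, 5 members were higher and 5 lower, which together is 16.7% of the members tested, beside 23.5% of all genes tested (1647 higher and 1569 lower). In bulk liver, fewer cells of a type and less RNA per cell cannot be told apart, and this holds for every value that follows.

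The fitted log2 fold change (DDI2-KO over WT) was negative for 40 of the 60 members and positive for 20, with a median of -0.070, beside -0.015 over all genes tested, of which 51.3% had a negative value. The split among members depended on the scaling: 45 were negative with upper-quartile factors and 31 with library totals alone. The median size of a member's log2 fold change was 0.17, beside 0.30 over all genes. Between the 2 DDI2-KO libraries the median difference of members was 0.21 in size, and between the 2 WT libraries 0.12. Both DDI2-KO libraries lay below both WT libraries for 20 members (33.3%, against 27.7% of all genes tested), above them for 9 (15.0%, against 28.0%), and the groups overlapped for 31.

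By family, the summed level of the USP genes was 240 ± 3.08 CPM per kb in WT and 242 ± 10.8 in DDI2-KO (SD, n = 2 each). That of the UCH genes was 19.4 ± 0.315 and 19.2 ± 0.194 CPM per kb, so neither of these 2 sums differed by more than its spread. By gene, 30 of the 43 USP genes (69.8%) had negative log2 fold changes and 13 positive, beside 51.3% negative over all genes tested. Their median was -0.074 (-0.13 to -0.025 over the alternatives). The OTU genes summed to 53.3 ± 3.62 CPM per kb in WT and 48.4 ± 0.378 in DDI2-KO. The 3 MJD genes summed to 28.9 ± 2.35 and 23.3 ± 0.348 CPM per kb, and the 2 JAMM genes to 7.16 ± 0.428 and 5.42 ± 0.430 CPM per kb. On this scale the lower MJD sum in DDI2-KO holds a lower Josd2 beside a higher Josd1. It depended on the division by length. Without it, the summed CPM of the MJD genes was 79.9 and 74.2 in WT and 69.7 and 77.7 in DDI2-KO, so the groups overlapped. The lower JAMM sum holds a lower Brcc3 beside a Stambp that overlapped between groups. With 2 libraries a group, an exact permutation test of a single value cannot go below p = 0.333 (two-sided), so none was read from these sums.

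**Figure D2:**
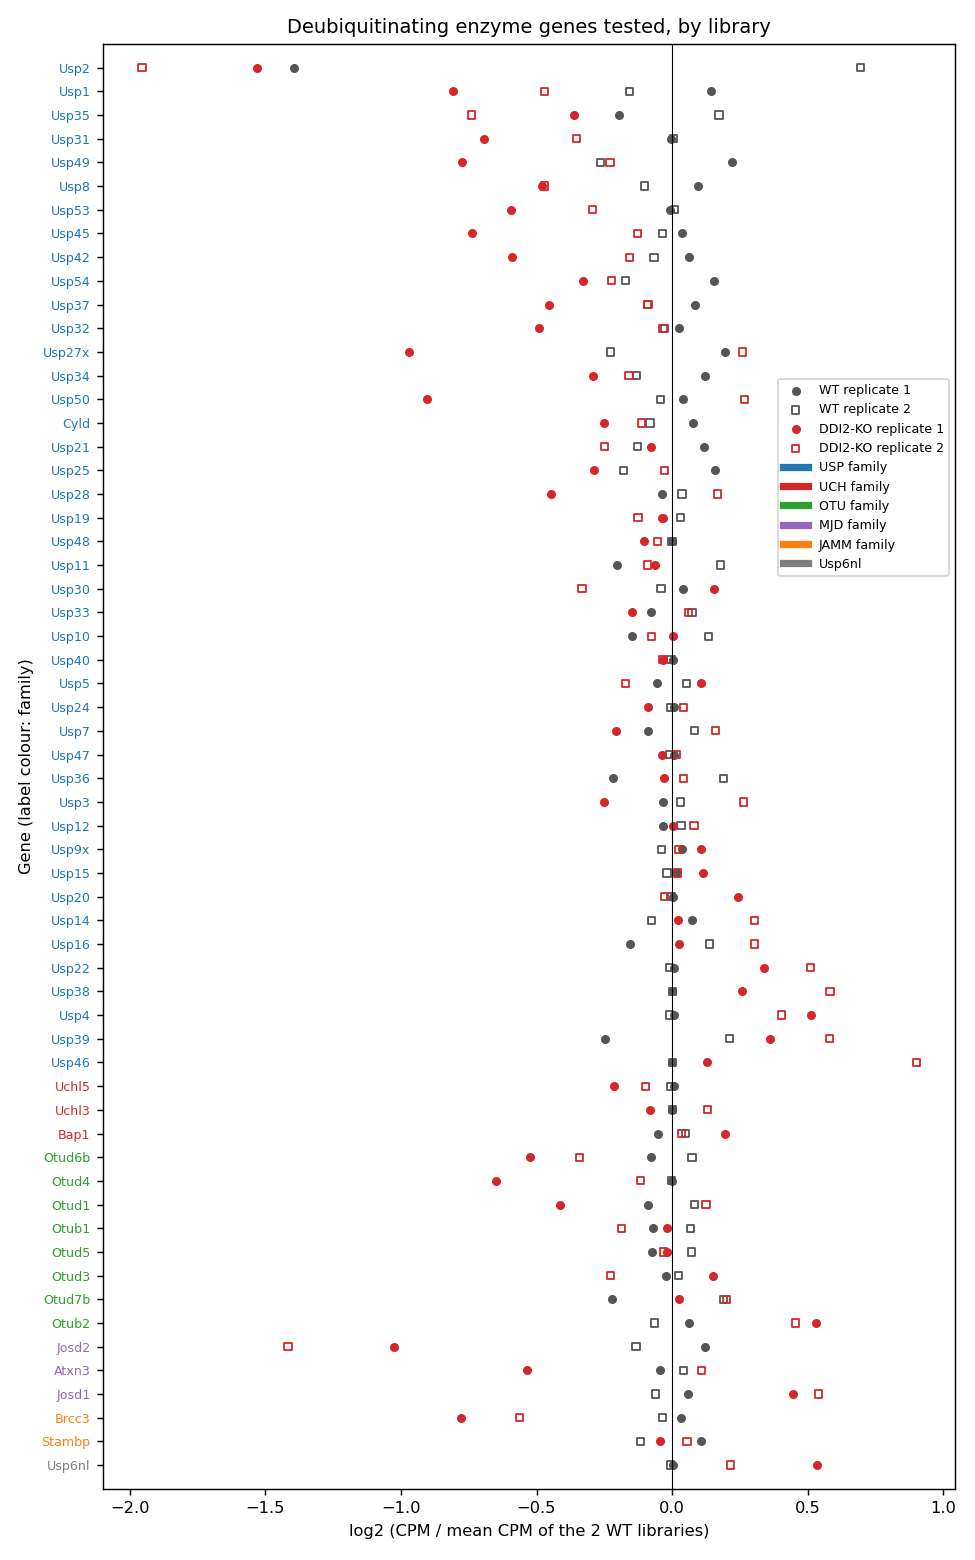
Each tested member in each library, as log2 of its CPM over the mean CPM of the 2 WT libraries, with genes grouped by family (label colour) and ordered by fold change. Most red marks (DDI2-KO) lie within 0.5 of the WT mean; Josd2 and Usp2 are farthest below it and Usp46 in DDI2-KO replicate 2 is farthest above it.

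Josd2 (ENSMUSG00000038695), which encodes the small Josephin enzyme whose cysteine codon is printed above, spans chr7:44467980-44471662 on the + strand. WT replicates 1 and 2 had 901 and 694 reads and DDI2-KO replicates 1 and 2 had 313 and 212, which is 26.8 and 22.5 CPM against 12.1 and 9.23 CPM. Both DDI2-KO libraries were well below both WT libraries. The means were 24.6 ± 3.07 and 10.7 ± 2.03 CPM (SD, n = 2 each), so the DDI2-KO level was 43.3% of the WT level. The log2 fold change was -1.21 (SE 0.20, edgeR adjusted p = 0.0338). The call was kept in 15 of 17 alternatives, whose adjusted p ran from 2.44e-05 to 0.122. It was lost without WT replicate 1 (log2 fold change -1.07) and in limma-trend (adjusted p = 0.0506). In limma-voom it was only just kept (adjusted p = 0.04996).

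The gene next to Josd2 on the same strand had a negative value as well, just short of the threshold. Aspdh, a gene upstream of Josd2 that was chosen for this comparison after its values were seen, ends 221 bases before Josd2 begins. Its reads were 2672 and 2059 in WT and 1144 and 756 in DDI2-KO, or 79.5 and 66.6 CPM against 44.2 and 32.9 CPM. Its groups did not overlap either, with a log2 fold change of -0.92 (SE 0.19, edgeR adjusted p = 0.0502, and 0.000502 to 0.226 over the alternatives). Josd2 CPM was 33.7% of Aspdh CPM in both WT libraries and 27.4% and 28.0% in the DDI2-KO libraries. Whether reads that run on from Aspdh were counted on Josd2 was not tested.

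Josd1, the membrane-bound relative of Josd2, lay in the opposite direction. Its reads were 1116 and 943 in WT and 1123 and 1064 in DDI2-KO, or 33.2 and 30.5 CPM against 43.4 and 46.3 CPM. Both DDI2-KO libraries were above both WT libraries, with a log2 fold change of 0.49 (SE 0.16) that did not pass the test (edgeR adjusted p = 0.114). The ratio of Josd1 CPM to Josd2 CPM was 1.24 and 1.36 in WT and 3.59 and 5.02 in DDI2-KO. Of the 50-base stretches of Josd1, 13.6% also occur in the annotated gene Gm10651, and the part of this in the Josd1 counts was not tested.

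Atxn3, the third Josephin gene, encodes ataxin-3, the protein of Machado-Joseph disease, which works with the ATPase VCP in degradation of proteins from the endoplasmic reticulum (ER). It had 20.0 and 21.2 CPM in WT and 14.2 and 22.2 CPM in DDI2-KO. DDI2-KO replicate 1 was low and DDI2-KO replicate 2 was the highest of all libraries, so the groups overlapped (log2 fold change -0.18, SE 0.23, edgeR adjusted p = 0.681). Together with Usp25, the other gene of the list for polyglutamine proteins and ER-associated degradation, 3 of 4 had negative values and only Josd2 passed the test.

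**Figure D3:**
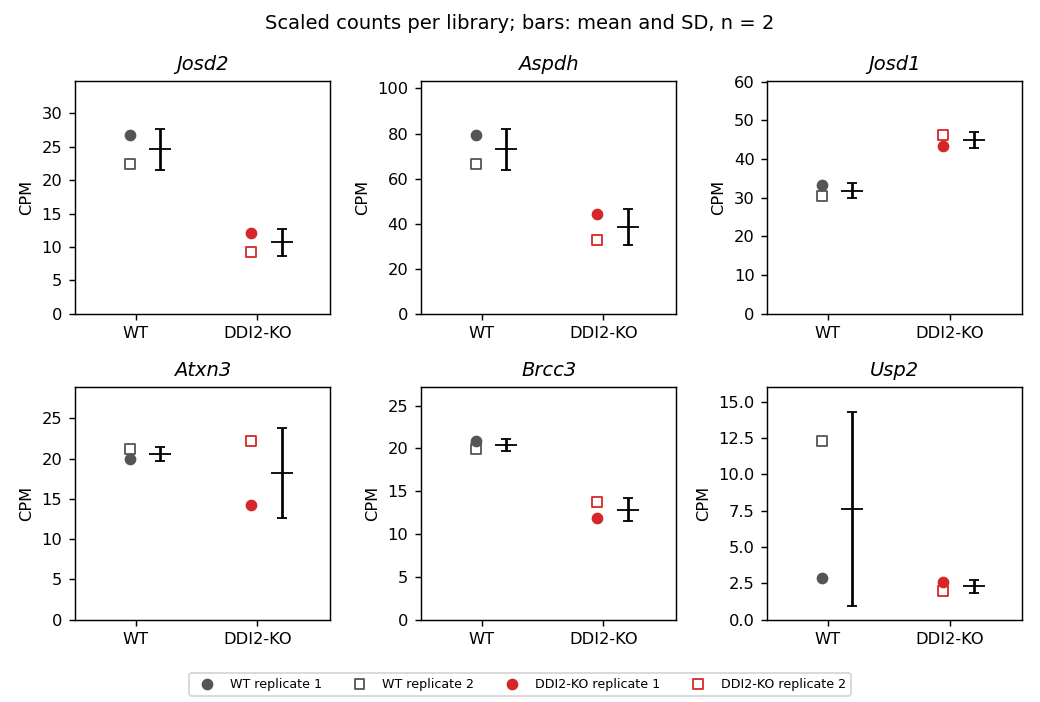
CPM per library of Josd2, its upstream neighbour Aspdh, Josd1, Atxn3, Brcc3 and Usp2, with 1 mark per library and bars for the mean and SD of 2 libraries; every axis starts at 0. Josd2, Aspdh and Brcc3 are lower in both DDI2-KO libraries, Josd1 is higher in both, Atxn3 overlaps, and the Usp2 mean in WT rests on WT replicate 2 at 12.3 CPM.

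Of the JAMM genes, Brcc3 encodes the subunit that cuts K63-linked chains in the BRCA1-A complex of DNA repair and the cytosolic BRISC complex. Its reads were 702 and 615 in WT and 308 and 317 in DDI2-KO, which is 20.9 and 19.9 CPM against 11.9 and 13.8 CPM. The groups did not overlap, and the replicates of each group were close. Its log2 fold change of -0.67 (SE 0.17) did not pass the test (edgeR adjusted p = 0.0761), but did when no filter on low counts was used (adjusted p = 0.0287, with a range over the alternatives of 0.0287 to 0.336). With offsets for length and GC content its log2 fold change was -0.30 (adjusted p = 0.270). Stambp, which removes K63-linked chains from receptors on endosomes, had 22.0 and 18.8 CPM in WT and 19.8 and 21.2 CPM in DDI2-KO and overlapped fully (log2 fold change 0.0061, edgeR adjusted p = 0.986).

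Usp2, an enzyme known as an output of the circadian clock in liver, had the lowest fitted value of all members. Its reads were 97 and 380 in WT and 68 and 45 in DDI2-KO, or 2.89 and 12.3 CPM against 2.63 and 1.96 CPM. WT replicate 2 stood far above the other libraries, and WT replicate 1 lay just above DDI2-KO replicate 1. The log2 fold change was -1.72 (SE 0.75, edgeR adjusted p = 0.261), and it rested on 1 library: it was -0.33 without WT replicate 2, and -2.42 with an adjusted p of 0.00704 without WT replicate 1. DESeq2 gave an adjusted p of 0.0287, and over all alternatives it ran from 0.00704 to 0.763. Where 1 library is left out, its group holds a single library, which the fit assumes to vary like the other group. Among 16 clock genes tested beside it, 12 had negative and 4 positive values with a median log2 fold change of -0.84. In edgeR, 2 of these passed as lower in DDI2-KO (Per1 and Nr1d2) and 1 as higher (Nfil3). Both DDI2-KO libraries lay below both WT libraries for 9 of the 16 (56.25%, against 27.7% of all genes tested). They lay above both for 2 (12.5%, against 28.0%). For 9 of the 16 the highest level was in WT replicate 2, as for Usp2, and for 4 the lowest was. The part of this difference between libraries in the Usp2 value was not tested.

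None of the 43 tested USP genes, Usp2 included, passed the test. The 4 highest log2 fold changes were those of Usp46, Usp39, Usp4 and Usp38, and the 4 lowest those of Usp2, Usp1, Usp35 and Usp31. Usp46, a partner of the WD-repeat proteins Wdr48 and Wdr20, had 10.6 CPM in each WT library and 11.6 and 19.8 CPM in DDI2-KO. Its value of 0.56 (SE 0.26, edgeR adjusted p = 0.234) rested on DDI2-KO replicate 2, since it was 0.14 without that library, and 0.90 with an adjusted p of 0.0492 without DDI2-KO replicate 1. Over its alternatives the adjusted p of Usp46 ran from 0.0492 to 0.714.

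The reads of Usp4 were 2738 and 2485 in WT and 2985 and 2460 in DDI2-KO, or 81.4 and 80.4 CPM against 115 and 107 CPM. Its WT libraries were nearly equal and both DDI2-KO libraries were higher, by a log2 fold change of 0.46 (SE 0.16, edgeR adjusted p = 0.136). Usp39, a protein of the spliceosome, had 14.2 and 19.5 CPM in WT and 21.6 and 25.2 CPM in DDI2-KO (log2 fold change 0.48, SE 0.20, edgeR adjusted p = 0.207), and its value was 0.27 without WT replicate 1 and 0.72 without WT replicate 2. Usp38 had 19.2 and 19.3 CPM in WT and 23.1 and 28.9 CPM in DDI2-KO (log2 fold change 0.43, SE 0.18, edgeR adjusted p = 0.192). These 3 genes did not overlap between groups and did not pass the test in any of their alternatives. An antisense gene, Gm9725, covers 20.5% of the exon bases of Usp38. The strand setting of the counting was not stated, and the effect of this overlap on the Usp38 count was not tested.

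On the low side, Usp1, which removes ubiquitin from FANCD2 and PCNA in DNA repair, had 22.6 and 18.4 CPM in WT and 11.7 and 14.8 CPM in DDI2-KO. Its groups were apart, with a log2 fold change of -0.63 (SE 0.20, edgeR adjusted p = 0.114, 0.0445 with no filter on low counts and 0.0445 to 0.494 over the alternatives). Of its 50-base stretches, 22.8% also occur in the annotated gene Gm5841. Usp31 had 6.04 and 6.08 CPM in WT and 3.75 and 4.74 CPM in DDI2-KO (log2 fold change -0.52, SE 0.23, edgeR adjusted p = 0.225). Usp35, near the lower end of what was tested, had 0.952 and 1.23 CPM in WT and 0.850 and 0.653 CPM in DDI2-KO (log2 fold change -0.53, SE 0.40, edgeR adjusted p = 0.466). Usp27x and Usp50 had so few reads, at most 35 and 15 in a library, that values of -0.24 (SE 0.49) and -0.22 (SE 0.57) left their direction undetermined.

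In the histone and chromatin group, 10 of 12 genes were tested, of which 6 had negative and 4 positive log2 fold changes with a median of -0.087, and none passed. The lowest was Brcc3 and the highest Usp22, the catalytic subunit of the SAGA complex that takes ubiquitin off histone H2B. Usp22 had 27.1 and 26.8 CPM in WT and 34.0 and 38.4 CPM in DDI2-KO, without overlap (log2 fold change 0.43, SE 0.16, edgeR adjusted p = 0.160). Bap1, the UCH enzyme that acts on histone H2A with Asxl partners, had 27.9 and 29.9 CPM in WT and 33.1 and 29.6 CPM in DDI2-KO and overlapped (log2 fold change 0.12, SE 0.16, edgeR adjusted p = 0.705).

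Neither of the 2 enzymes that bind the regulatory part of the proteasome passed the test. Usp14, which trims chains at the regulatory particle, had 38.8 and 35.0 CPM in WT and 37.4 and 45.6 CPM in DDI2-KO (log2 fold change 0.17, SE 0.17, edgeR adjusted p = 0.591). The gene Thoc1 overlaps 26.0% of the exon bases of Usp14 on the other strand. Thoc1 had 20.5 and 21.1 CPM in WT and 12.8 and 16.8 CPM in DDI2-KO (log2 fold change -0.49, SE 0.19, edgeR adjusted p = 0.170). The effect of this overlap on the Usp14 count was not tested. Uchl5, which is held at the proteasome by Adrm1, had 15.1 and 14.9 CPM in WT and 12.9 and 14.0 CPM in DDI2-KO, and these groups did not overlap although they differed little (log2 fold change -0.16, SE 0.17, edgeR adjusted p = 0.633).

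The genes of ubiquitin recycling that could be tested were Usp5 and Uchl3, which frees ubiquitin and NEDD8 from small adducts. Usp5 had 47.6 and 51.4 CPM in WT and 53.4 and 44.0 CPM in DDI2-KO, with the DDI2-KO libraries on either side of WT (log2 fold change -0.025, SE 0.17, edgeR adjusted p = 0.946). Uchl3 had 12.2 CPM in each WT library and 11.6 and 13.4 CPM in DDI2-KO (log2 fold change 0.028, SE 0.18, edgeR adjusted p = 0.944). For these genes both signs occurred among the alternatives.

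Among the OTU genes, 6 of 8 had negative log2 fold changes and the median was -0.062, which was -0.13 without WT replicate 1 and -0.0087 without DDI2-KO replicate 2. The lowest was Otud6b, an enzyme tied to translation initiation, with 34.3 and 38.1 CPM in WT and 25.2 and 28.5 CPM in DDI2-KO (log2 fold change -0.43, SE 0.16, edgeR adjusted p = 0.169). The highest was Otub2, with read counts of 89 and 75 in WT and 95 and 80 in the smaller DDI2-KO libraries, or 2.65 and 2.43 CPM against 3.67 and 3.48 CPM (log2 fold change 0.49, SE 0.26, edgeR adjusted p = 0.286). For both genes the groups did not overlap. Otub1 had 32.3 and 35.5 CPM in WT and 33.5 and 29.8 CPM in DDI2-KO and overlapped (log2 fold change -0.099, SE 0.16, edgeR adjusted p = 0.753).

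In the list for NF-kB and inflammatory signalling 3 of 6 genes had negative values, from -0.18 for Cyld, which takes apart linear and K63-linked chains, to 0.46 for Usp4. Cyld had 24.6 and 22.0 CPM in WT and 19.6 and 21.6 CPM in DDI2-KO (SE 0.17, edgeR adjusted p = 0.557). On endosomes, the range over 4 genes was from -1.72 for Usp2, which rests on 1 library as given above, to 0.066 for Usp9x, which ran from 0.014 to 0.49 over its alternatives. Usp8, an endosomal enzyme that binds ESCRT proteins and was named after its values were seen, had 72.0 and 62.8 CPM in WT and 48.3 and 48.6 CPM in DDI2-KO, without overlap (log2 fold change -0.48, SE 0.16, edgeR adjusted p = 0.122). Of the 4 enzymes of mitochondrion and ER, the lowest value was that of Usp19, which is anchored in the ER membrane (log2 fold change -0.081, SE 0.15), and the highest that of Usp20 (0.11, SE 0.23). None of these lists held a gene that passed the test.

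Usp15, which has been described to stabilise NRF1, the substrate of DDI2, had read counts of 1269 and 1137 in WT and 1045 and 868 in DDI2-KO. Scaled, this was 37.7 and 36.8 CPM against 40.4 and 37.8 CPM. The 4 libraries were nearly level, with DDI2-KO just above WT (log2 fold change 0.068, SE 0.15, edgeR adjusted p = 0.824). Over the alternatives its value ran from 0.015 with upper-quartile factors to 0.38 when length and GC content were corrected for, and none of them gave a call.

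Enzymes and partners outside the rule were taken as lists. Of 18 further deubiquitinating enzymes, 12 had positive and 6 negative log2 fold changes, and only Eif3f, a subunit of translation initiation factor eIF3, passed. It was higher in DDI2-KO, with 48.6 and 47.6 CPM in WT and 84.2 and 87.3 CPM in DDI2-KO (log2 fold change 0.83, SE 0.15, edgeR adjusted p = 0.0404, and 0.00107 to 0.173 over the alternatives). The call was kept in 11 of 17 alternatives and lost, among others, without WT replicate 1 (adjusted p = 0.173) and without WT replicate 2 (adjusted p = 0.156). The lowest was Mysm1, a histone H2A enzyme, with 15.4 and 13.5 CPM against 6.22 and 8.53 CPM (log2 fold change -0.97, SE 0.22, edgeR adjusted p = 0.0596), and it passed in 4 of 17 alternatives (adjusted p 0.00260 to 0.249).

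Of 30 partner proteins of these enzymes, 16 had positive and 14 negative values and 1 passed. Atxn7l3b, which competes for a subunit of the SAGA enzyme module, was higher, with 67.8 and 68.8 CPM in WT and 117 and 121 CPM in DDI2-KO (log2 fold change 0.80, SE 0.16, edgeR adjusted p = 0.0438, and 0.00142 to 0.206 over the alternatives). Its call was kept in 10 of 17 alternatives, and lost without WT replicate 1 (adjusted p = 0.206) and without WT replicate 2 (adjusted p = 0.161). Adrm1, the proteasomal receptor of Uchl5, was the lowest, with 12.6 and 11.9 CPM in WT and 7.77 and 4.79 CPM in DDI2-KO (log2 fold change -0.96, SE 0.25, edgeR adjusted p = 0.0780), and it passed in 5 of 17 alternatives (adjusted p 0.00474 to 0.269).

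Among 10 proteases of the ubiquitin-like proteins SUMO and NEDD8, 6 had positive and 4 negative values. Desi2, a SUMO isopeptidase, was higher in DDI2-KO, with 14.1 and 13.2 CPM in WT and 27.0 and 36.5 CPM in DDI2-KO (log2 fold change 1.21, SE 0.20, edgeR adjusted p = 0.0309, and 6.75e-06 to 0.0869 over the alternatives). Its call was kept in 15 of 17 alternatives and lost without WT replicate 1 (adjusted p = 0.0869) and without WT replicate 2 (adjusted p = 0.0839). Senp6, which trims SUMO chains, was the lowest, with 41.1 and 44.5 CPM in WT and 31.3 and 34.5 CPM in DDI2-KO (log2 fold change -0.38, SE 0.16, edgeR adjusted p = 0.194).

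Transcript length was set beside the fold changes because the members are long: their longest annotated transcripts had a median of 4655.5 bases, against 3295 over all genes tested. Over all 13675 genes with a length, Spearman's rho of log2 fold change with length was -0.12, and over the 60 members it was -0.046. These are descriptions across genes, which share the same 4 libraries. Within groups, rho over the members was -0.24 for WT replicate 2 over replicate 1 and 0.21 for DDI2-KO replicate 2 over replicate 1. The sign over members turned to 0.058 when length was counted as the union of all exons.

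In bins of length, the 16 members over 6000 bases had a median log2 fold change of -0.23, with 11 negative and 5 positive, beside -0.16 over the 1865 genes of that length. The 24 members of 4000 to 6000 bases had -0.036 (all genes -0.048), the 16 of 2000 to 4000 bases -0.030 (all genes 0.035), and the 4 under 2000 bases, Josd2 among them, -0.13 (all genes 0.038). With offsets for length in the fit, the median over members was -0.031 and 35 of 60 were negative. With offsets for length and GC content it was -0.039 and 34 were negative. Josd2, at 1557 bases the shortest of the tested members, passed the test under both. Base composition went with the difference between the DDI2-KO libraries: rho of DDI2-KO replicate 2 over replicate 1 with GC content was -0.53 over members and -0.48 over all genes, and its part in the members' values beyond these offsets was not tested.

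**Figure D4:**
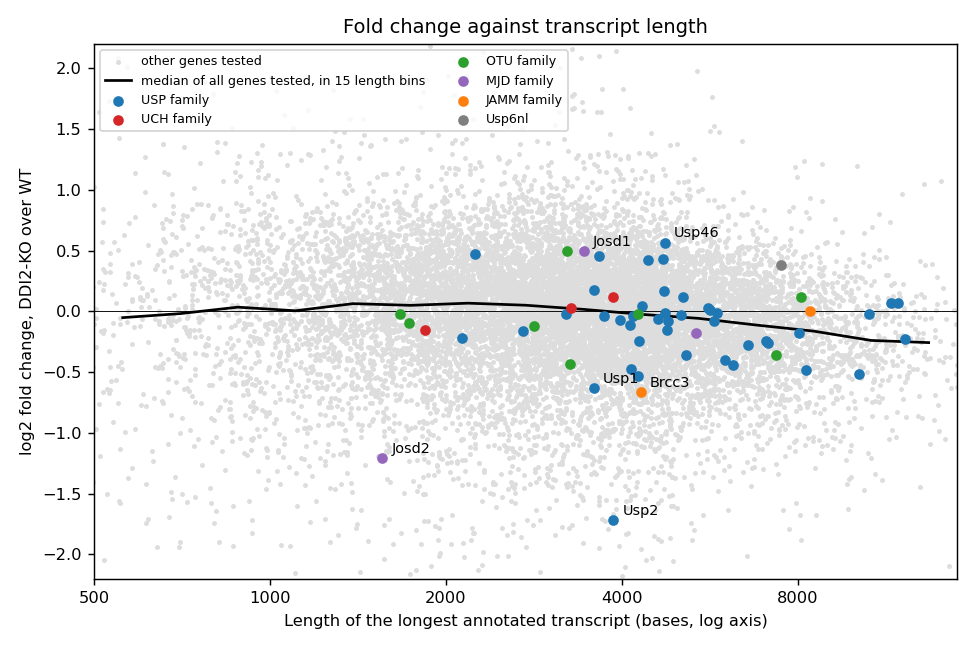
Log2 fold change of DDI2-KO over WT against the length of the longest annotated transcript (log axis), with the members coloured by family over all other genes tested in grey and the median of all genes in 15 length bins as a line. The line falls below 0 for the long transcripts, and Josd2 and Usp2 lie far below it; 322 genes outside the axes are not drawn, none of them a member.

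Markers of other cell types were examined beside the members. The 5 erythroid markers all had negative values, summing to 109 and 210 CPM in WT and 79.3 and 68.3 CPM in DDI2-KO, and Hba-a1 passed the test. The 8 stellate cell and fibroblast markers all had negative values and none passed (493 and 549 CPM against 483 and 484 CPM). Of the 8 sinusoidal endothelial markers 4 were negative and Stab2 passed as lower (569 and 489 CPM against 543 and 511 CPM). The Kupffer cell and macrophage markers, 6 of 8 positive, summed to 730 and 624 CPM in WT and 869 and 743 CPM in DDI2-KO. Bile duct markers, 4 of 6 tested positive, summed to 78.8 and 76.6 CPM against 88.0 and 88.2 CPM, and lymphocyte markers, 2 of 8 positive, to 10.7 and 13.1 CPM against 8.92 and 11.1 CPM. Neutrophil markers, 3 of 4 tested positive and Ly6g at 0, summed to 7.47 and 7.12 CPM against 7.11 and 6.18 CPM, and none of these last 4 lists held a gene that passed. The 5 adipocyte markers summed to 9.99 and 12.6 CPM against 23.0 and 23.8 CPM, with Plin1 and Lep at 0 and Pparg, which hepatocytes can also make, passing as higher. The part of these markers in the members' values was not tested.

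The promoter windows of members, from 250 bases before to 50 bases after the annotated start in RefSeq on GRCm38.p6, were searched for the core of the antioxidant response element, TGACNNNGC on either strand, because NRF1 is known to bind it. A window was given for 61 of the 75 members. The core was present in 18 of them (29.5%), beside 14.0% of the 27025 genes with a window and 16.7% of those tested for expression. Of the tested members, 13 of 49 held it (26.5%). These 13 had 9 negative and 4 positive log2 fold changes with a median of -0.12, and the 36 without it had 25 and 11 with a median of -0.076. The 4 windows below, with the core in capitals, belong to members described above and lie at chr15:79687890-79687918 on the - strand (Josd1, the nearer to the start of its 2 matches, core on the other strand), chr1:143777234-143777262 on the + strand (Uchl5), chr9:44084906-44084934 on the + strand (Usp2) and chr8:88696854-88696882 on the + strand (Cyld). The Josd2 window held no such letters. A match of these letters is a description of the window and no measure of binding.
Josd1: aggttggcagGCGGGGTCAgcgcgggggc
Uchl5: gcgcggcaggTGACGGCGCccggaggctg
Usp2: tccccggcgcTGACGTCGCaaagctggaa
Cyld: ccaccgagctTGACCGAGCggaaagtccc

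The E-box CACGTG is the site of clock and other bHLH factors. It was present in 9 of the 61 windows (14.8%), beside 8.09% of all genes with a window. Of the tested members, 9 of 49 held it (18.4%), beside 11.5% of the genes tested for expression. In Otud1, Otud3 and Usp32 it overlaps the antioxidant core. The first of 2 such sites in Atxn3, at chr12:101958318-101958343 on the - strand, and that of Usp4, at chr9:108347814-108347839 on the + strand, are shown as examples. No E-box was found in the windows searched for Usp2. The Usp2 window with the antioxidant core lies inside the gene, whose annotated start is chr9:44067021. Bases outside the windows were not searched.
Atxn3: ccgcccaggtCACGTGtcccgtgctc
Usp4: cgggcgcgcgCACGTGcgtggttacg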

How the data were processed

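The authors deposited raw counts of reads per Ensembl gene for each of the 4 liver libraries, without normalization. RNA was purified on RNeasy columns and the libraries were of the TruSeq Stranded mRNA type. The submitters' processing notes name cutadapt 1.8, STAR 2.5.2b, HTSeq 0.6.1 and the build GRCm38; the annotation and the strand setting of the counting were not given in the sources used here. Summary lines of the counter were not used as genes.

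Symbols, families and lengths came from GENCODE on GRCm38, which held 48349 of the 48709 genes. The counts were fitted with edgeR 4.0.16 (R 4.3.3), using TMM factors, filterByExpr and its robust quasi-likelihood test without a replicate block, and p-values were adjusted by Benjamini-Hochberg over all 13699 genes tested. Calls are at an adjusted p under 0.05. The study's methods name a moderated limma test; limma 3.58.1 was run as an alternative, as were DESeq2 1.42.0, other scalings and filters, offsets for length and GC content (lowess span 0.3) and leaving out each library. The scripts were tested on simulated counts. The 2 libraries of a group were distinct: the chi-square of their counts per degree of freedom was 70.5 in WT and 35.8 in DDI2-KO, above the value near 1 of pure sampling. The labels call the libraries replicates without naming animals, so p-values measure the spread between these libraries.

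The members and lists were chosen with earlier results of these data known. Named are members that passed the test, the highest and lowest of each family (4 each for USP) and of each role list, the 3 highest and 3 lowest levels per length, all members of the proteasome-bound, recycling, NRF1 and conjugation-inhibitor lists, and of the other lists the genes that passed and the extremes. Usp13 and Uchl1 were named among the untested, and Usp8, Aspdh, Per1, Nr1d2 and Nfil3 after their values were seen. Thoc1 was named for its overlap with Usp14. Sequences of 50 bases were searched in other annotated genes. Coding stretches were read from the genome of the files' build, because no protein table was used here, and promoters from RefSeq on GRCm38.p6.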

Additional observations from a re-analysis of the deposited data

How the results depend on the processing

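The number of genes with an adjusted p under 0.05 was 346, and 932 in DESeq2, 136 in limma-voom, 139 in limma-trend, 1544 with no filter on low counts, 152 without robust estimation, 772 with length and GC offsets, 1281 at an adjusted p under 0.1, and 153 to 631 when 1 library was left out. Of the members 1 passed, and 2 in DESeq2 (Josd2 and Usp2), 0 in limma-trend, 3 with no filter (Josd2, Brcc3 and Usp1), 2 at an adjusted p under 0.1 (Josd2 and Brcc3) and 1 to 2 when 1 library was left out. Without WT replicate 1 the member that passed was Usp2 and not Josd2. Among all calls the share that was higher in DDI2-KO was 52.6%, 39.7% with upper-quartile factors and 60.8% with library totals.

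The median log2 fold change of members, -0.070, was -0.12 with upper-quartile factors and -0.092 to -0.026 with 1 library left out. The rho of members with length, -0.046, was 0.20 with length offsets and -0.16 to 0.041 with 1 library left out. Some small values changed sign. Stambp was -0.047 with upper-quartile factors, -0.012 under a minimum mean of 1 CPM and -0.10 to 0.13 with 1 library left out. Usp5 was 0.023 with library totals and -0.17 to 0.12 with 1 library left out. Uchl3 was -0.025 with upper-quartile factors, -0.0053 with length offsets and -0.073 to 0.14 with 1 library left out. Usp19 was 0.077 with length and GC offsets and 0.076 with the replicate block added. Leaving out 1 library gave -0.96 to 0.26 for Usp27x, -0.88 to 0.27 for Usp50 and -0.024 to 0.25 for Usp20. The cause was not tested.

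No pairing of the libraries by replicate number was stated. The deviations of the libraries numbered 1 from their group means correlated at 0.059. With 2 libraries a group, this value cannot settle whether they were paired. With the replicate block, 1108 genes passed, and 224 with the block and the length and GC offsets; 1 member, Josd2, passed in each. Depth limits Usp27x, Usp35 and Usp50 most, which had at most 35, 38 and 15 reads in a library and standard errors of 0.49, 0.40 and 0.57.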
